A study of Mus musculus with 38 samples.

Results

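The genes described here encode the subunits of the proteasome together with its assembly factors and regulators. Of the 23125 gene rows of the deposited table, 16151 are annotated as protein-coding, and 49 of these have a symbol made of Psm, a letter from a to g and a number. The rule took 7 genes of the alpha ring of the 20S core, 7 of its beta ring, 4 immune and thymic beta subunits, 6 ATPases and 11 other subunits of the 19S cap, 7 assembly chaperones, and 6 activators or inhibitors. The remaining gene, Psmc3ip, encodes a meiotic recombination factor named for its binding to Psmc3 and is no proteasome subunit. Its values are described apart, but it stays in the sums over the 49 genes and in the counts of the 42 genes tested. The table holds 52 rows with such symbols in all, and the other 3 are pseudogenes. Psma8, the alpha subunit of the testis, was not analysed here.

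The study sequenced RNA from oocytes and early embryos of ICR mice at 6 stages after splitting each lysate on a sucrose gradient. The lighter 5 of 10 gradient fractions were pooled as the non-polysome sample and the heavier 5 as the polysome sample, the polysome being an mRNA loaded with several ribosomes. Females were at least 6 weeks old, were primed with PMSG, and are wild type by the labels. Each stage and fraction had 3 libraries, 36 in all.

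GV oocytes, arrested in prophase of meiosis, were collected in IBMX, which keeps that arrest, and MII oocytes had been matured in culture without it to the second meiotic metaphase. Zygotes in interphase were recovered after hCG and mating with males of the same strain, and two-cell embryos in interphase grew from such zygotes in KSOM medium. Zygote M and two-cell M embryos were stopped in the M-phase of the first and the second mitosis with 10 µM nocodazole, a microtubule poison that the GV, MII, zygote and two-cell groups did not receive. M-phase in the embryo groups and the drug therefore cannot be told apart. All lysates came from material treated with cycloheximide, which holds ribosomes on the mRNA. The labels give each library only a letter and do not say whether letters stand for separate animals, while the paper speaks of biological replicates. The p-values measure the spread between these libraries, which may be partly technical.

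The 26S proteasome degrades proteins marked with ubiquitin chains. Its 20S core is a barrel with alpha subunits in the outer rings, which gate the entry, and beta subunits in the inner rings, of which Psmb5, Psmb6 and Psmb7 carry the proteolytic sites. The 19S cap binds the ubiquitin chain, removes it and unfolds the substrate with a ring of ATPases. In oocytes and cleaving embryos the proteasome destroys cyclin B and securin at each exit from M-phase, and removes maternal proteins after fertilization.

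Values are FPKM, which are scaled to transcript length and to the mapped fragments of the library, so levels can be compared between genes. The smallest value in every library is 0.01, and a gene listed at 0.01 had no measured signal. Depth, estimated from the smallest steps between values, was 8500000 to 26600000 fragments per library, so that 1 FPKM stands for about 8.5 fragments per kilobase in the shallowest library. The two-cell M libraries stood apart, with 6261 to 7550 genes over 0.1 FPKM in polysomes and 5140 to 5889 in the non-polysome fraction, against 8383 to 10361 and 6798 to 10525 in the libraries of the other stages. The 10 oocyte markers, such as Zp3 and Gdf9, summed to 6252 to 7375 FPKM in GV polysomes and to 53.7 to 222 FPKM in two-cell M polysomes. The 9 two-cell genes measured, such as Zscan4d, summed to 425 to 716 FPKM in the two-cell non-polysome libraries and to 128 to 195 FPKM in two-cell polysomes, but also to 176 to 323 FPKM in GV and 105 to 209 FPKM in zygote M polysomes, a sum that Tcstv1 and Tcstv3 carried, at 203.2 and 36.7 FPKM on average in GV polysomes. The 4 Zscan4 genes, Zfp352 and Usp17la averaged at most 0.0516 FPKM in GV polysomes and 4.13 to 8.09 FPKM in two-cell polysomes. The 9 granulosa markers measured summed to 0.0900 to 1.03 FPKM in two-cell polysomes, 4.45 to 15.7 FPKM in two-cell M polysomes, most of it Amhr2, and 8.37 to 20.2 and 5.91 to 19.2 FPKM in the non-polysome fractions of these stages, against at most 0.246 FPKM in GV, zygote and zygote M polysomes. In MII polysomes these markers summed to 0.893 to 4.75 FPKM, most of it Inha, at 2.32 FPKM on average. They reached at most 23.6 FPKM, in an MII non-polysome library, with Foxl2 and Fshr under 0.5 FPKM on average in every group. The 9 leukocyte markers reached at most 25.1 FPKM and the 4 sperm markers 6.33 FPKM in any library. The 4 haemoglobin genes summed to at most 1.33 FPKM in the oocyte and zygote libraries but summed to 34.3 to 83.7 FPKM in two-cell polysomes, 24.4 to 42.5 FPKM in two-cell M polysomes and 99.7 to 162 FPKM in the two-cell non-polysome fraction. In the two-cell M non-polysome fraction they ran from 0.04 FPKM, the sum of 4 values at the floor, to 52.6 FPKM. Nearly all of the haemoglobin sum was Hba-a1, at 53.4 FPKM on average in two-cell polysomes and 129 in the two-cell non-polysome fraction. The beta genes Hbb-bs and Hbb-bt averaged at most 0.0201 FPKM in the two-cell and two-cell M groups. Whether the Hba-a1 RNA came from blood was not tested, nor was its part or that of depth in the results below.

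The share of polysome RNA held by proteasome genes was highest in MII oocytes and lower by mean at each later stage, from zygote to two-cell M. Summed over the 49 genes, it was 4881 ± 725 ppm, that is parts per 1000000 of the library's summed FPKM, in GV (mean ± SD, n = 3), 7395 ± 92.2 in MII and 3708 ± 187 in zygotes. It was 2148 ± 199 in zygote M, 1542 ± 401 at the two-cell stage and 1075 in two-cell M, where the libraries ranged from 850.0 to 1232. The 3 MII libraries, at 7337 to 7502 ppm, lay above every other polysome library, and the two-cell range, 1105 to 1894 ppm, overlapped with that of two-cell M. Much of the MII level was Psmb6, which averaged 70.5 FPKM in GV and 275 in MII polysomes. The 49 genes summed to 557 and 896 FPKM there. Reads of pseudogene copies, described below, leave the level of Psmb6 uncertain. The non-polysome fraction gave the same order from MII, at 6323 ± 192 ppm, down to two-cell M, at 1497 ± 528, with GV at 3457 ± 703. Each library pools whole oocytes or embryos, so fewer cells that hold a transcript and less of it in each cell cannot be told apart.

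The groups of genes differed in their course. The 7 beta ring genes took 1107 ppm in GV polysomes, 3587 in MII, 456 in zygotes and 1075 in zygote M. The last step was that of Psmb3 and Psmb6, since 5 of the 7 genes had negative differences in the first mitosis, with a median of -1.56. Of all 7967 genes tested 3003 had a positive difference there, and their median was -0.43. The alpha ring's sum went from 1825 in GV to 625 in MII, 1038 in zygotes and 138 in zygote M. That course was mainly Psma7, which made up 188 of the ring's 204 FPKM in GV polysomes. Of the 6 alpha genes tested 3 had a positive difference in MII against GV, with a median of 0.41, against 4299 of all 7967 genes and a median of 0.18. The 6 ATPases of the cap took 199 ppm in GV, 744 in MII and 33.2 in zygote M polysomes, and none of the 9 libraries from zygote M onwards was above 59.3. These sums are given as values, with no test.

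**Figure D1:**
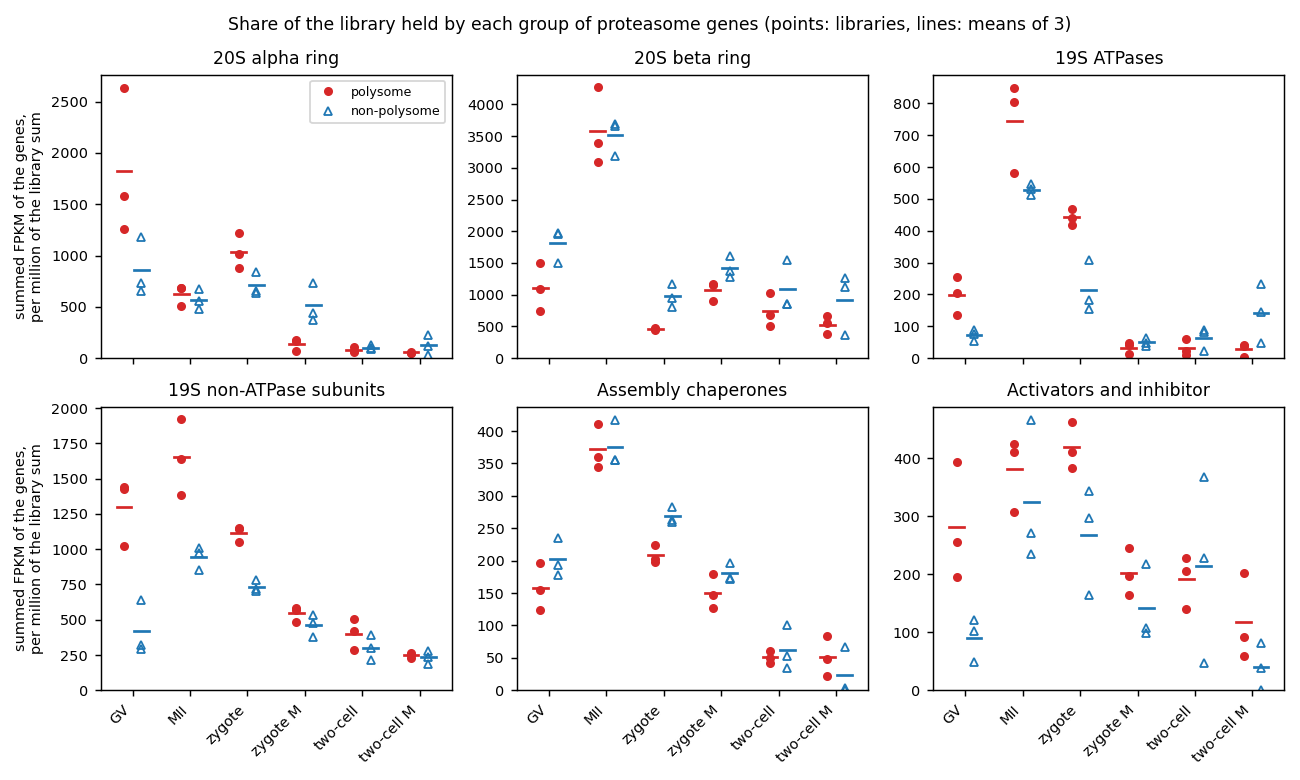
Summed FPKM of each group of proteasome genes in ppm of the library's summed FPKM (vertical axis, linear, from 0) at the 6 stages (horizontal axis), with a point for each library and a line for the mean of 3 libraries, filled circles for polysomes and open triangles for the non-polysome fraction. The beta ring, ATPases and assembly chaperones are highest in MII, while the alpha ring is highest in GV polysomes at 1825 ppm.

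Levels differed widely between genes of one ring. Over the 36 libraries Psmb6 had the highest mean, 92.0 FPKM, and the highest geometric mean, 60.2 FPKM. The next 5 genes were Psma7, Psmb3, Psmb4, Psmd8 and Psmd4 by either measure, with means of 31.7 to 49.9 FPKM and geometric means of 13.6 to 23.3 FPKM, and their order differed between the measures. At the other end, the catalytic subunit Psmb7 averaged 0.826 FPKM, Psma3 0.179 FPKM, and Psmd14, the deubiquitinase of the cap, 0.134 FPKM. In polysomes 19 of the 49 genes had their highest group mean in MII, 10 in GV, 9 in two-cell M, 5 in zygotes, and 3 each in zygote M and two-cell. The lowest mean fell in two-cell M for 13 genes, in zygote M for 12, in two-cell for 12, and in MII for 1. In the non-polysome fraction the highest mean was in MII for 20 genes and in two-cell M for 15.

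**Figure D2:**
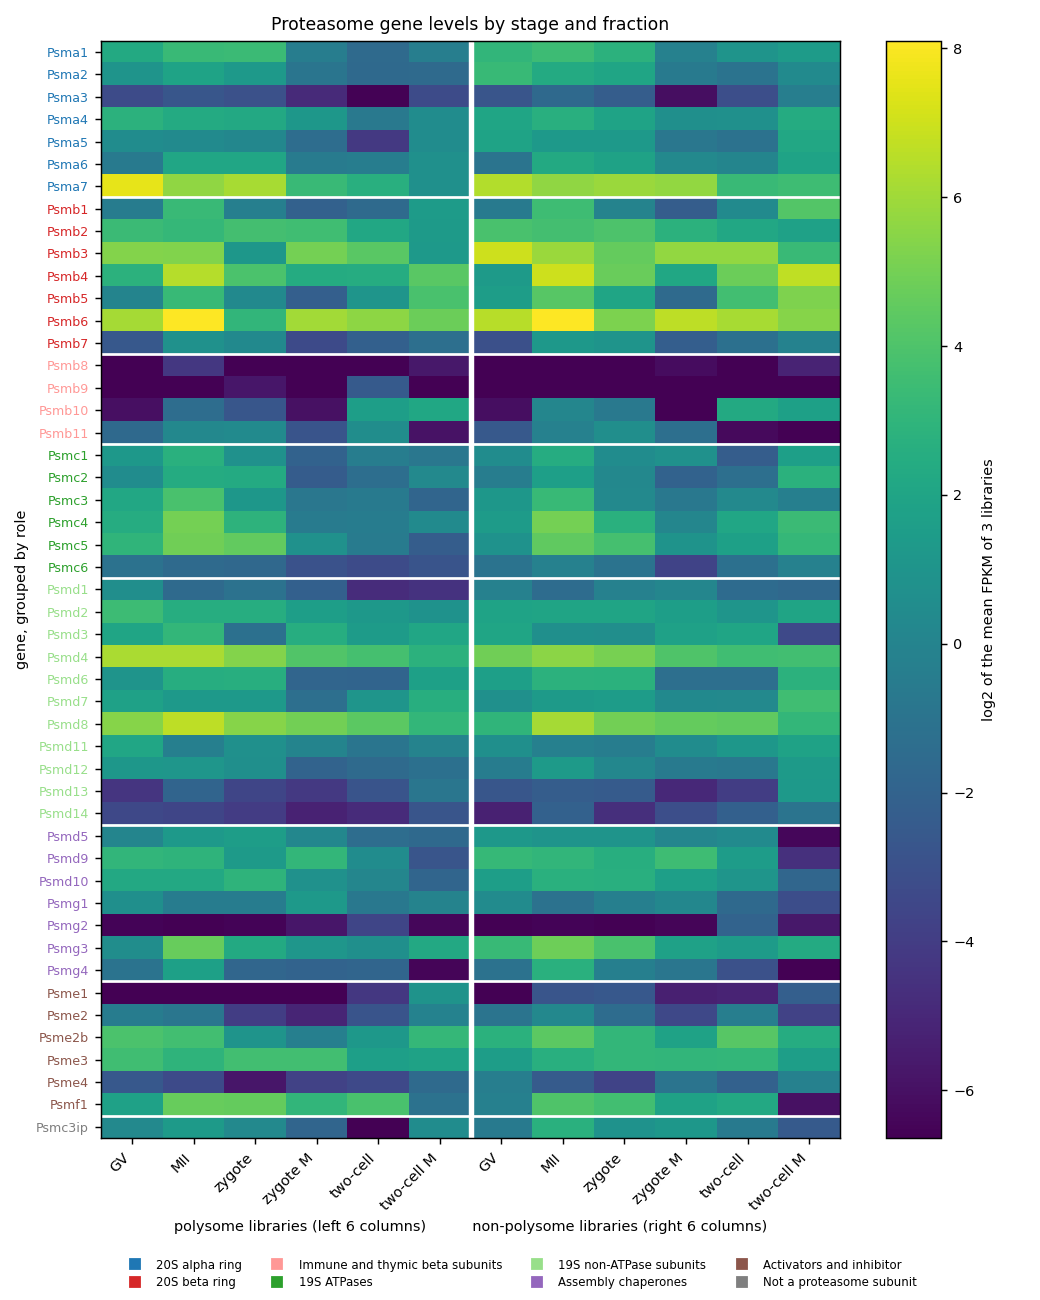
Mean FPKM of 3 libraries on a log2 colour scale for the 49 genes (rows, grouped and coloured by role) in the 6 polysome groups (left) and the 6 non-polysome groups (right). The brightest cells, at 275 and 265 FPKM, are Psmb6 in MII polysomes and in the MII non-polysome fraction, and the rows of Psmb8, Psmb9 and Psmg2, with means over all libraries of 0.0161, 0.0250 and 0.0388 FPKM, are the darkest.

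Stages were compared gene by gene with limma on log2 FPKM, over the 7967 genes whose geometric mean reached 0.1 FPKM. Calls required a fold change over 2 and p under 0.05 after Benjamini-Hochberg adjustment. Of the 49 genes, 42 passed that minimum. Psma3, Psmb8, Psmb9, Psmd13, Psmd14, Psme1 and Psmg2 did not and have no test. A stage effect in polysomes was found by the F-test in 32 of the 42, against 62.9% of all genes tested, and the smallest adjusted p belonged to Psmb3 (9.62e-09), the chaperone Psmd9 (1.03e-08) and Psmb6 (2.13e-08). Differences between groups are log2 of one geometric mean over another, with ± for the standard error.

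Entry into meiotic M-phase was compared first, MII against GV. The call went up for 5 of the 42 genes, Psma6, Psmb1, Psmb5, Psmb6 and Psmb7, against 3.36% of all genes, and down for 0, against 2.75%. 4 of the 5 belong to the beta ring. An unadjusted p under 0.05 was found for 10 of the 42 genes and for 1431 of all 7967. The median difference was 1.10 for the 42 genes and 0.18 for all genes, and 22 of the 42 had every MII library above every GV library, against 27.3% of all genes. Under quantile normalization 9 genes were higher and 3 lower (701 and 844 of all genes), where the median of all genes was -0.13. A fit of only these groups gave 16 higher and 2 lower (1279 and 883 of all genes). Without GV library B 3 genes were called, and without any other 1 of the 6 libraries 2, Psmb6 and Psmb7 being called in every such fit. The granulosa markers, given above, also summed to more in MII than in GV polysomes, and their part here was not tested.

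In the first mitosis, zygote M against zygote, 2 genes were higher, Psmb3 and Psmb6, against 3.24% of all genes. 4 were lower, Psmb7, Psmc2, Psmd6 and Psmd7, against 2.51%. The difference had a median of -1.61, against -0.43 for all genes, and 29 of the 42 had every zygote M library below every zygote library, against 37.2% of all genes. Quantile normalization gave 4 higher and 13 lower (666 and 496 of all genes), and a fit of only these groups 6 and 23 (906 and 1729). Without any 1 of the zygote libraries, or without zygote M library B, 3 genes were called in place of 6.

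In the second mitosis, two-cell M against two-cell, 5 genes were higher, Psma5, Psmb1, Psmb5, Psmd6 and Psmc3ip, against 8.13% of all genes. 5 were lower, Psmb3, Psmd9, Psmd10, Psmf1 and Psmg4, against 28.1%. The median difference was -0.02 for the 42 genes where that of all genes was -1.17. No overlap between the groups was seen for 11 higher genes, against 15.1% of all genes, and for 9 lower genes, against 28.4%. Under quantile normalization the median of all genes was 0.22 and that of the 42 genes 1.24, with 12 genes higher and 3 lower (1482 and 1490 of all genes), so the split between rises and falls depends on the scaling. The granulosa markers, given above, also summed to more in the M-phase libraries of this pair, and their part in these results was not tested.

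Oocytes were then compared with embryos of the same cell cycle phase. In interphase GV was higher than the zygote in 2 genes, Psmb3 and Psmb6 (3.88% of all genes), and lower in 1, Psmb7 (1.73%). The difference had a median of 0.02 for the 42 genes and -0.01 for all genes. Quantile normalization gave 5 higher and 3 lower (763 and 647 of all genes), and a fit of only these groups 8 and 11 (1338 and 1128), so that in that fit the balance turned. The call of Psmb7 was lost without GV library B or zygote library C, and those of Psmb3 and Psmb6 held without any 1 library.

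Against the two-cell stage, GV was higher in 10 genes (12.3% of all genes) and lower in 1, Psmb10 (4.39%). The median difference was 2.41, against 0.85 for all genes. Of the 10, 4 were alpha ring genes, Psma1, Psma2, Psma5 and Psma7, and the others were Psmb2, Psmc5, Psmd1, Psmd4, Psmd9 and Psmc3ip. Without GV library A or C, 7 genes were called in place of 11. The calls that held without any 1 library were 6, those of Psma5, Psma7, Psmd1, Psmd4, Psmd9 and Psmc3ip. Quantile normalization gave 14 higher and 2 lower (1033 and 1023 of all genes), with a median of all genes of 0.06.

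In M-phase MII was higher than zygote M in 15 genes (8.95% of all genes) and lower in 0 (3.4%), with 25 of 42 at an unadjusted p under 0.05, against 1891 of 7967. The difference had a median of 2.70, against 0.46 for all genes. Quantile normalization gave 20 higher and 1 lower (1014 and 1068 of all genes, with a median of -0.23), and a fit of only these groups 30 and 1 (2156 and 1079). The calls held 5 of the 7 beta ring genes, 4 of the 6 ATPases, 3 of the 9 other cap subunits tested, 2 alpha ring genes and Psmg4. 6 of the 15 calls, Psmb1, Psmb5, Psmb6, Psmb7, Psmd4 and Psmg4, held without any 1 library. Without MII library A 6 genes were called, without zygote M library B 7, and without the other 4 libraries 9 to 11. The granulosa markers also summed to more in MII than in zygote M polysomes, and their part here was not tested.

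MII was higher than two-cell M in 20 genes (45.2% of all genes) and lower in 0 (7.86%), with 22 of 42 at an unadjusted p under 0.05, against 4679 of 7967. The median difference was 3.29, against 2.64 for all genes, and quantile normalization gave 14 higher and 4 lower (1835 and 1808 of all genes) with a median of all genes of 0.14. Without two-cell M library A 16 genes were called, and 15 of the 20 calls held without any 1 library. The comparisons that share a group, such as both with GV or both with MII, are not independent of each other.

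**Figure D3:**
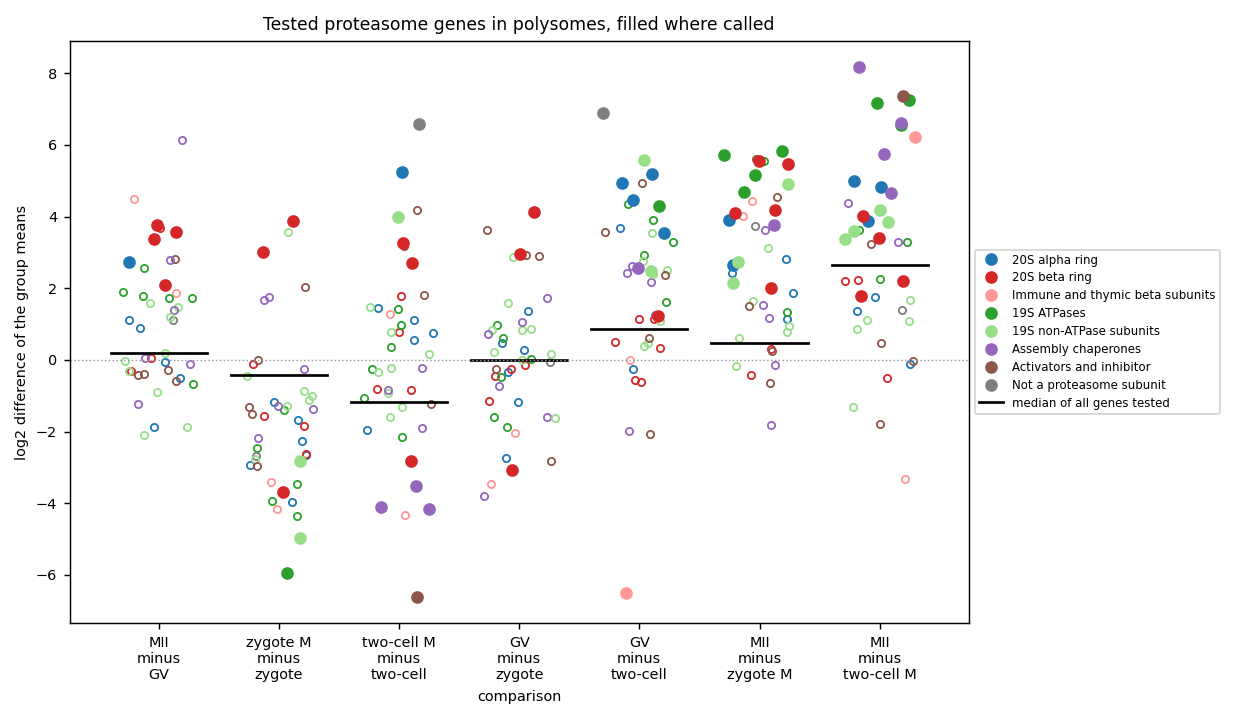
Log2 difference of the group means in polysomes (vertical axis) for the 42 genes tested in each of the 7 comparisons (horizontal axis), coloured by role and filled where called, with a black line at the median of all genes tested. In MII against zygote M and MII against two-cell M every filled point is above 0, and in the first mitosis Psmb3 and Psmb6 are the filled points above 0.

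Of the 7 beta ring genes 6 had a stage effect in polysomes. Psmb6, the caspase-like catalytic subunit (chr11:70525367-70527858 in GRCm38, plus strand), lay in GV polysomes at 65.5, 110.1 and 35.9 FPKM in the 3 libraries and in MII at 265, 344 and 216 FPKM. In zygotes it was at 8.10, 7.48 and 9.41 FPKM, in zygote M at 77.9, 75.2 and 50.9, in two-cell at 41.4, 73.5 and 29.3 and in two-cell M at 20.4, 18.9 and 43.8 FPKM. The MII libraries were above, and the zygote libraries below, all other polysome libraries. Psmb6 was higher in MII than in GV by 2.08 ± 0.46 (limma adjusted p = 0.00387), in zygote M than in zygotes by 3.01 ± 0.46 (adjusted p = 4.63e-05) and in GV than in zygotes by 2.94 ± 0.46 (adjusted p = 7.80e-05). These calls held with each library left out. Two-cell M against two-cell gave -0.80 ± 0.46 (adjusted p = 0.176), with overlapping groups.

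Psmb3, a structural beta subunit (chr11:97703399-97713500, plus strand), had the same low zygote. Its polysome values were 40.9, 63.9 and 21.0 FPKM in GV, 38.0, 50.9 and 31.8 in MII and 2.69, 1.56 and 2.49 in zygotes. They were 30.5, 39.9 and 27.4 FPKM in zygote M, 12.97, 34.7 and 11.6 in two-cell and 2.18, 3.47 and 1.93 in two-cell M. Zygote and two-cell M libraries were low, with no overlap with the other 4 stages. The rise in the first mitosis was 3.88 ± 0.52 (limma adjusted p = 6.23e-06) and the difference in the second, a fall, -2.83 ± 0.52 (adjusted p = 0.000116), while MII against GV gave 0.06 ± 0.52 (adjusted p = 0.984). GV exceeded the zygote by 4.12 ± 0.52 (adjusted p = 4.40e-06) and MII exceeded two-cell M by 4.01 ± 0.52 (adjusted p = 4.24e-07).

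Psmb1, another structural subunit, was at 0.852, 0.822 and 0.552 FPKM in GV polysomes and at 7.97, 10.7 and 11.4 in MII. It was at 0.750, 0.915 and 0.778 FPKM in zygotes, 0.127, 0.336 and 0.267 in zygote M, 0.211, 0.345 and 0.486 in two-cell and 0.689, 3.86 and 3.74 in two-cell M. The MII libraries did not overlap with any other stage, and the zygote M libraries were among the lowest. MII exceeded GV by 3.77 ± 1.02 (limma adjusted p = 0.0212) and zygote M by 5.46 ± 1.02 (adjusted p = 0.000407). The first of these calls was lost without any 1 of the 6 libraries, with differences of 3.57 to 3.92 and adjusted p of 0.0531 to 0.0840. The second held in each of its 6 such fits. Two-cell M exceeded two-cell by 2.71 ± 1.02 (adjusted p = 0.0377), a call lost without two-cell library A or B or two-cell M library B or C, with no minimum and with only these groups in the fit.

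Psmb5, the chymotrypsin-like catalytic subunit and the main target of the drug bortezomib (chr14:54614119-54618022, minus strand), had 0.940, 1.58 and 0.554 FPKM in GV polysomes and 8.86, 11.3 and 9.32 in MII. Zygotes had 1.49, 1.08 and 1.31 FPKM and zygote M 0.282, 0.128 and 0.243, while two-cell had 0.386, 2.16 and 3.56 and two-cell M 12.3, 21.0 and 10.3 FPKM. It was high in MII and in two-cell M and lowest in zygote M, with no overlap between two-cell M and two-cell. The differences were 3.38 ± 0.94 for MII against GV (limma adjusted p = 0.0277), 3.27 ± 0.94 for the second mitosis (adjusted p = 0.00804) and 5.57 ± 0.94 for MII against zygote M (adjusted p = 0.000126). The call in MII against GV held in 1 of 6 fits with a library left out, that without GV library B. The call in the second mitosis was lost without two-cell library A, where the difference was 2.32 with an adjusted p of 0.0809, and with only these groups in the fit.

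Psmb7, the trypsin-like catalytic subunit, was a scarce transcript. It had 0.268, 0.0899 and 0.135 FPKM in GV polysomes and 1.57, 1.66 and 2.03 in MII. It had 1.01, 1.499 and 1.25 FPKM in zygotes and 0.0715, 0.107 and 0.114 in zygote M, and 0.143 to 0.299 FPKM in two-cell and 0.213 to 0.691 in two-cell M. It was higher in MII than in GV by 3.56 ± 0.73 (limma adjusted p = 0.00192). It was lower in zygote M than in zygotes, with a difference of -3.70 ± 0.73 (adjusted p = 0.00122), opposite in sign to Psmb3 and Psmb6. GV against the zygote gave -3.06 ± 0.73 (adjusted p = 0.00841), a call lost without GV library B or zygote library C and with 1 FPKM added. The table also holds processed pseudogenes of these genes, Psmb6-ps, Psmb6-ps2 and Psmb7-ps2, with up to 3.02, 1.95 and 13.7 FPKM in a library. How reads matching a gene and its copy were assigned is not given in the sources used here, so the levels of Psmb6 and Psmb7 are uncertain to that extent.

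Psmb4 and Psmb2 complete the ring. Psmb4 was at 7.97, 8.11 and 5.03 FPKM in GV polysomes and at 77.9, 94.3 and 94.4 in MII, with no overlap, yet the difference of 3.69 ± 1.34 did not pass (limma adjusted p = 0.113) and MII against zygote M, at 4.10 ± 1.34 (adjusted p = 0.0430), was called but lost without any 1 of its 6 libraries, with a replicate block and with no minimum. The non-polysome values of Psmb4 in GV were 2.52, 0.01 and 5.49 FPKM, 1 of them at the floor. Psmb2 was at 10.7, 11.3 and 10.2 FPKM in GV, 7.84, 7.28 and 11.6 in MII, 4.45, 5.22 and 4.12 in two-cell and 1.98, 2.13 and 3.89 in two-cell M polysomes. GV exceeded two-cell by 1.23 ± 0.43 (adjusted p = 0.0460), a call that was lost without any 1 of the 6 libraries (adjusted p 0.0715 to 0.124) and under quantile normalization (0.103), and with a replicate block.

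**Figure D4:**
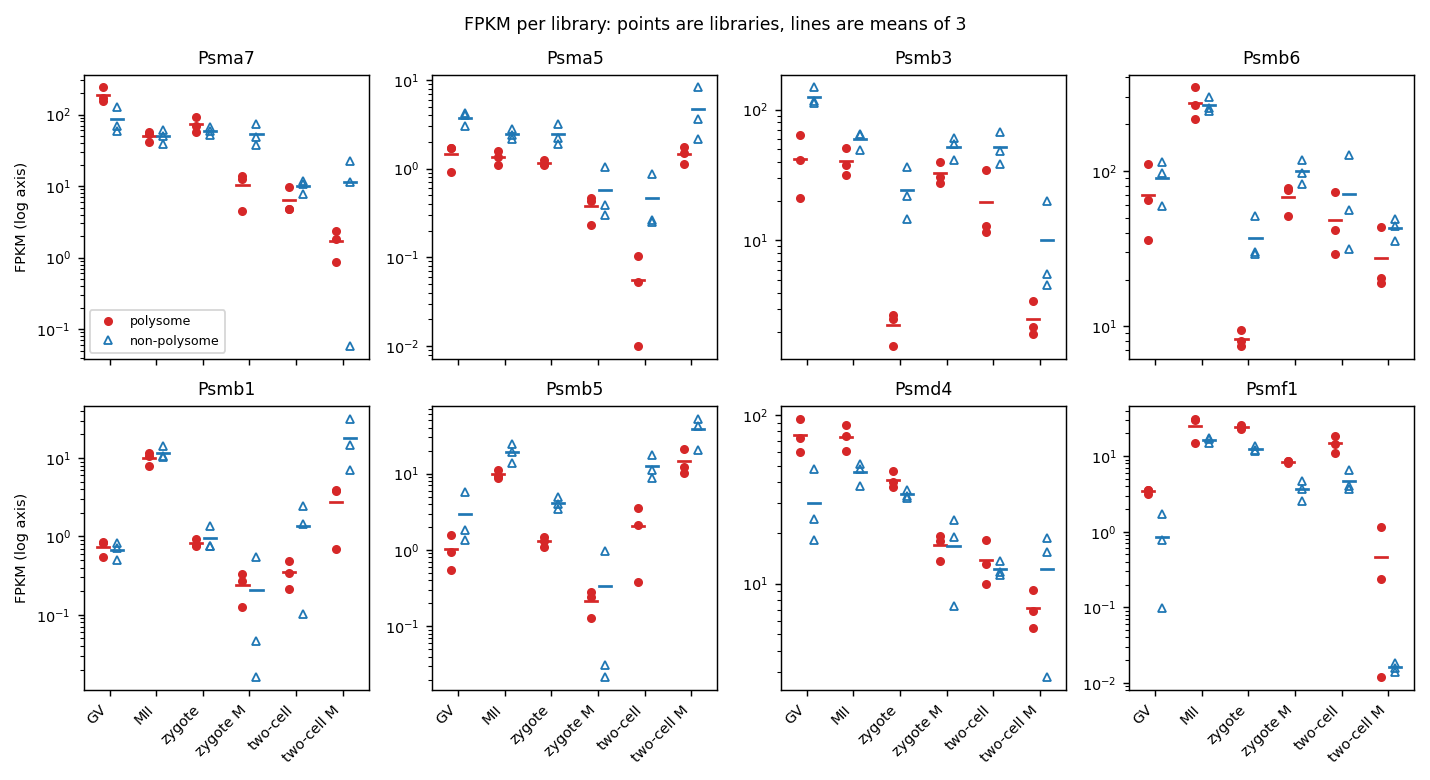
FPKM in each library (vertical axis, log scale, its range differing between panels) for 8 proteasome genes at the 6 stages (horizontal axis), with filled circles for polysome libraries, open triangles for non-polysome libraries and lines at the mean of 3. Psmb3 and Psmb6 dip in zygote polysomes well below their non-polysome points, Psmb1 and Psmb5 are high in MII and low in zygote M polysomes, Psmb5 is also high in two-cell M, and Psmf1 lies between 0.0118 and 1.15 FPKM in two-cell M polysomes.

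Psmb6, Psmb5 and the chaperone gene Psmd9 carry in the 250 bases before their transcription start the letters TGACNNNGC, which resemble the site bound by Nrf1 and Nrf2, factors that induce proteasome genes. The windows are shown for 2 catalytic genes and a chaperone gene whose values are described here. The third catalytic gene, Psmb7, has no entry in the promoter table. Capitals mark the motif, and all run 5′ to 3′ on the gene's strand (RefSeq, GRCm38.p6). The Psmb6 window is chr11:70525327-70525356 (plus), with the motif's first base 9 bases before the start. Starts are those of the RefSeq table, which can differ from the gene ends given here, as for Psmb6 and Psmb5. The Psmb5 window is chr14:54618023-54618052 (minus), with the motif's first base 47 bases before the RefSeq start. The Psmd9 window is chr5:123228149-123228178 (plus), with the motif's first base 31 bases before the start. The deposited annotation begins this gene far upstream, at chr5:123169413, so the window lies inside the gene as annotated there.
Psmb6: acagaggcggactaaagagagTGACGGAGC
Psmb5: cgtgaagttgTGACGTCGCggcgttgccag
Psmd9: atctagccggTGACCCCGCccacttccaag

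Of the 49 genes 42 had a promoter entry in the RefSeq table, and 5 of these held TGACNNNGC on either strand of the 250 bases, against 11.5% of 27025 genes. CCAAT was in 15 of 42, against 37.5% of genes, and GGGCGG in 22, against 35.4%. A match describes letters and shows no binding.

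Stored oocyte mRNAs are often switched on or off through their 3′ ends, where the cytoplasmic polyadenylation element TTTTAT or TTTTAAT is read. In the last 100 bases of the 3′ UTR, on the sense strand, 6 of the 49 genes held one, Psma1, Psma5, Psmb1, Psmb3, Psmg1 and Psmg3, against 17.1% of 20883 genes (GENCODE vM21). The 2 windows below belong to Psmb3 and Psma5, which moved in opposite directions in the second mitosis. Both are on the plus strand of GRCm38 and capitals mark the element. The Psmb3 window is chr11:97713466-97713495, where the element begins 24 bases from the transcript's end, its first base included, and overlaps letters of the cleavage signal AATAAA. The Psma5 window is chr3:108279910-108279939, where it begins 53 bases from the end.
Psmb3: tttgtttttctTTTTAATaaaattgccttt
Psma5: gtgtgtgtgtttTTTTATgaagtctgtaca

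In the alpha ring Psma7 was the most abundant gene in GV polysomes. Its polysome values were 172, 152 and 239 FPKM in GV, 57.0, 41.0 and 53.7 in MII and 56.9, 69.0 and 92.8 in zygotes. They were 12.6, 4.55 and 13.9 FPKM in zygote M, 4.74, 4.82 and 9.56 in two-cell and 2.36, 0.880 and 1.82 in two-cell M. GV stood above every other stage, and the 9 libraries from zygote M onwards lay below all libraries of the earlier stages. GV exceeded two-cell by 4.93 ± 1.12 (limma adjusted p = 0.00274) and MII exceeded two-cell M by 5.01 ± 1.12 (adjusted p = 0.000552). The M-phase comparisons gave -1.88, -2.94 and -1.95 in meiosis, the first and the second mitosis, none past the threshold.

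Psma5 (chr3:108256926-108279974, plus strand), whose 3′ end is shown above, was nearly absent from two-cell polysomes. It was at 1.71, 0.924 and 1.69 FPKM in GV, 1.10, 1.35 and 1.58 in MII and 1.25, 1.10 and 1.12 in zygotes. In zygote M it was at 0.435, 0.470 and 0.234 FPKM, in two-cell at 0.103, 0.0533 and 0.01 and in two-cell M at 1.12, 1.52 and 1.77. The two-cell libraries were the lowest of all and did not overlap with two-cell M, which overlapped with GV and MII. Two-cell M exceeded two-cell by 5.25 ± 0.73 (limma adjusted p = 3.13e-06) and GV exceeded two-cell by 5.19 ± 0.73 (adjusted p = 8.94e-06), with each call held when any 1 library was left out. The gene was singled out after its values had been seen.

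The other alpha genes tested were Psma1, Psma2, Psma4 and Psma6. Psma6 was the alpha gene called in MII against GV, 2.74 ± 0.84 (limma adjusted p = 0.0487), with 0.552, 0.431 and 1.06 FPKM in GV and 3.16, 4.40 and 5.37 in MII polysomes, and the call held in 0 of 6 fits that left out 1 library and was lost with a replicate block and with no minimum on the level. Psma1, at 3.66 to 7.38 FPKM in GV and 10.6 to 10.7 in zygotes, was at 0.406 to 1.17 in zygote M and 0.0389 to 0.502 in two-cell. Psma4 had no stage effect. Psma3 was at or under 0.188 FPKM in every polysome library.

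The immune subunits Psmb8, Psmb9 and Psmb10, which replace Psmb5, Psmb6 and Psmb7 in cells exposed to interferon, and the thymic subunit Psmb11 differed in level. Psmb8 was listed at 0.01 FPKM in 30 of 36 libraries with a highest value of 0.124 FPKM, and Psmb9 in 34 of 36 with a highest value of 0.526. Psmb6 exceeded both in every library. Psmb10 was at 0.01 FPKM in 11 of 36 libraries and reached 13.6 FPKM in two-cell non-polysome library C. Psmb11 was at 0.381, 0.210 and 0.407 FPKM in GV polysomes, 0.972, 1.14 and 1.45 in MII, 0.894, 3.65 and 0.01 in two-cell and 0.01, 0.0185 and 0.0211 in two-cell M, and MII exceeded two-cell M by 6.22 ± 1.87 (limma adjusted p = 0.00663), which was not called under quantile normalization. Psmb10 was at 0.01, 0.01 and 0.0249 FPKM in GV polysomes and 0.125, 0.722 and 0.306 in MII, and at 7.06, 0.133 and 2.00 in two-cell and 6.35, 6.08 and 0.708 in two-cell M. Its two-cell libraries scattered widely but all lay above GV, and GV against two-cell gave -6.51 ± 1.88 (limma adjusted p = 0.0167), a call that was lost without GV library A or B or two-cell library A or C and with 1 FPKM added. Haemoglobin RNA, nearly all of it Hba-a1 as given above, was also found in the two-cell libraries and not in GV. The 9 leukocyte markers summed to 10.8 to 18.1 FPKM in GV and 6.86 to 16.3 FPKM in two-cell polysomes, most of it H2-Aa, but Lyz2, Coro1a and H2-Ab1 averaged 0.01, 0.0135 and 0.01 FPKM in GV and 1.30, 1.30 and 0.428 FPKM in two-cell polysomes. Of the other markers H2-Aa and Laptm5 were lower in two-cell, at 13.2 and 1.85 FPKM in GV and 6.04 and 0.987 in two-cell polysomes, and Cd74, Cd52, Tyrobp and Fcer1g averaged at most 0.0245 FPKM in both. In two-cell M polysomes Lyz2, Coro1a and H2-Ab1 averaged 0.01, 0.0591 and 0.504 FPKM. The part of blood cell RNA in the difference was not tested.

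The 19S ATPases Psmc1 to Psmc6 unfold the substrate. Psmc5 (chr11:106256154-106263120, plus strand) was at 8.23, 6.63 and 9.11 FPKM in GV polysomes, 28.6, 22.1 and 40.9 in MII and 20.5, 25.6 and 25.4 in zygotes. It was at 1.81, 0.262 and 3.20 FPKM in zygote M, 0.0731, 1.38 and 0.649 in two-cell and 0.320, 0.149 and 0.152 in two-cell M. No library from zygote M onwards reached the lowest of the earlier stages. MII exceeded zygote M by 4.68 ± 1.47 (limma adjusted p = 0.0340) and two-cell M by 7.25 ± 1.47 (adjusted p = 0.000192). The first was lost without any 1 of the MII libraries or of zygote M libraries A and B (adjusted p 0.0591 to 0.204) and with no minimum, and the second held in all 6 such fits.

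Psmc3 (chr2:91054009-91066369, plus strand) had 18.0, 10.0 and 16.6 FPKM in MII polysomes, against 5.77, 4.89 and 2.89 in GV and 1.90, 2.27 and 2.56 in zygotes. In zygote M it had 1.28, 0.221 and 0.236 FPKM and in two-cell M 0.01, 0.145 and 0.702. The MII libraries were above all others. MII exceeded zygote M by 5.15 ± 1.496 (limma adjusted p = 0.0208) and two-cell M by 7.17 ± 1.496 (adjusted p = 0.000261), the first lost without MII library A or C or zygote M library B or C (adjusted p 0.0652 to 0.0923). Psmc4, at 29.7 to 38.2 FPKM in MII polysomes and 3.75 to 7.02 in GV, gave 2.57 ± 2.07 for that pair (adjusted p = 0.578).

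All 6 ATPases had negative differences in the first mitosis, from -5.94 to -1.39, and 1 of them passed, Psmc2 (limma adjusted p = 0.0372). Of all 7967 genes 3003 had a positive difference there. Psmc2 was at 5.03, 5.27 and 5.33 FPKM in zygotes and at 0.140, 0.01 and 0.435 in zygote M, and the call was lost without any 1 library but zygote M library C, with a replicate block and with no minimum. In MII against GV 5 of the 6 had positive differences, up to 2.57, and 0 passed, with 0 at an unadjusted p under 0.05. Of all 7967 genes 4299 had a positive difference in that pair. The sum of the 6 did not overlap, at 70.7 to 104 FPKM in MII and 17.8 to 25.3 in GV polysomes. These p-values include the scatter of each gene at other stages, so they do not show that the ATPases stayed level.

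Among the other cap subunits Psmd4, a ubiquitin receptor, and Psmd8 were the abundant ones. Psmd4 (chr3:95032694-95042614, minus strand) was at 94.9, 72.9 and 60.5 FPKM in GV polysomes, 74.7, 61.1 and 86.9 in MII and 37.4, 40.0 and 46.8 in zygotes. It was at 19.3, 13.6 and 17.8 FPKM in zygote M, 18.1, 12.99 and 9.96 in two-cell and 5.46, 6.89 and 9.18 in two-cell M. The oocyte groups overlapped with each other and lay above every embryo library. GV exceeded two-cell by 2.49 ± 0.53 (limma adjusted p = 0.00132), MII exceeded zygote M by 2.14 ± 0.53 (adjusted p = 0.00593) and two-cell M by 3.39 ± 0.53 (adjusted p = 6.57e-06), and these calls held with each library left out.

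Psmd6, a lid subunit, changed in opposite directions in the mitoses. It was at 5.92, 6.23 and 5.75 FPKM in zygote polysomes and 0.412, 0.0423 and 0.387 in zygote M, a difference of -4.98 ± 1.33 (limma adjusted p = 0.0206). It was at 0.570, 0.0370 and 0.212 FPKM in two-cell and 4.91, 4.38 and 0.838 in two-cell M, a difference of 3.99 ± 1.33 (adjusted p = 0.0206). The groups did not overlap in either pair, but the first call was lost without any 1 zygote library or zygote M library B, and the second without two-cell library B or two-cell M library A or B and with only these groups in the fit. Psmd7, which pairs with the deubiquitinase Psmd14 in the lid, fell in the first mitosis by 2.82 on the log2 scale (adjusted p = 0.0231), a call lost without any 1 library but zygote M library A and with 1 FPKM added, and gave 1.47 ± 0.77 in the second (adjusted p = 0.137). Psmd1, the largest scaffold subunit, was higher in GV than in two-cell by 5.59 ± 1.26 (adjusted p = 0.00256), at 0.987 to 2.63 against 0.0106 to 0.0668 FPKM. Psmd13 and Psmd14 were under 1 FPKM in every polysome library.

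The 7 assembly chaperones took 372 ppm in MII polysomes, 50.7 at the two-cell stage and 51.3 in two-cell M. Psmd9, which chaperones a base intermediate that holds Psmc3 and Psmc6, was at 9.11, 7.43 and 9.04 FPKM in GV polysomes, 7.66, 7.97 and 7.96 in MII and 2.72, 2.20 and 2.82 in zygotes. It was at 8.83, 7.57 and 9.85 FPKM in zygote M, 1.47, 1.36 and 1.49 in two-cell and 0.0133, 0.138 and 0.286 in two-cell M. The replicates lay close together at every stage but two-cell M, where all 3 were below every other polysome library. Psmd9 fell in the second mitosis by 4.16 on the log2 scale (limma adjusted p = 3.75e-05), a call that was lost with only these groups in the fit, and zygote M against zygote gave 1.76 ± 0.69 (adjusted p = 0.159).

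Psmd10 (gankyrin) and Psmg4, an alpha ring chaperone, also fell in the second mitosis. Psmd10 was at 0.752, 0.853 and 1.68 FPKM in two-cell and 0.0967, 0.721 and 0.01 in two-cell M (limma adjusted p = 0.0247), a call lost without two-cell library C or two-cell M library A or C. Psmg4 was at 0.110, 0.629 and 0.110 FPKM in two-cell and 0.01, 0.0146 and 0.01 in two-cell M, that is at or near the floor (adjusted p = 0.00144), and the calls of both were lost under quantile normalization and with 1 FPKM added, that of Psmd10 also with only these groups in the fit. Psmg4 was highest in MII polysomes at 2.76, 3.65 and 3.46 FPKM. Psmg3 was at 1.89, 0.01 and 2.57 FPKM in GV and 23.5, 31.0 and 23.2 in MII, with no overlap. The difference of 6.14 ± 2.16 did not pass (limma adjusted p = 0.0980). In GV 1 library was at the floor, and its part in that result was not tested. Psmg2, which pairs with Psmg1, was listed at 0.01 FPKM in 26 of 36 libraries.

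Psmf1 (PI31), a regulator first known as an inhibitor of the 20S core (chr2:151715812-151744186, minus strand), had 3.61, 3.53 and 3.12 FPKM in GV polysomes, 30.4, 14.8 and 31.2 in MII and 22.8, 23.9 and 25.8 in zygotes. It had 8.61, 8.12 and 8.73 FPKM in zygote M, 11.1, 18.7 and 14.6 in two-cell and 0.0118, 0.235 and 1.15 in two-cell M. Every two-cell M library lay below every other polysome library, and the GV libraries were the next lowest. Psmf1 fell in the second mitosis by 6.62 on the log2 scale (limma adjusted p = 7.30e-06), and MII exceeded two-cell M by 7.35 ± 0.97 (adjusted p = 6.51e-07), both held with each library left out. In the non-polysome fraction of two-cell M it was at 0.0158, 0.0183 and 0.0141 FPKM. MII against GV gave 2.82 ± 0.97 (adjusted p = 0.0900).

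The activators open the gate of the 20S core without ATP. Psme3 (PA28 gamma), a nuclear activator, had 14.0, 3.97 and 18.6 FPKM in GV polysomes, 6.31, 8.23 and 8.97 in MII, 16.1, 9.82 and 11.4 in zygotes and 18.3, 9.21 and 10.6 in zygote M, and 0.332 to 5.17 in two-cell and 0.0240 to 8.21 in two-cell M. Psme4 (PA200) was under 1 FPKM in every polysome library, at 0.0149 to 0.0212 FPKM in zygotes and 0.183 to 0.574 in two-cell M. Psme1 (PA28 alpha) was at 0.01 FPKM in 24 of 36 libraries and reached 5.64 FPKM in 1 of them, two-cell M polysome library C. Psme2 (PA28 beta) was at 0.621 to 0.956 FPKM in GV and 0.01 to 0.0541 in zygote M polysomes, while its near copy Psme2b, a gene of 1 transcript, was at 11.6 to 16.7 FPKM in GV and 0.01 to 1.41 in zygote M. How reads that match both were assigned is not given in the sources used here, so the split between them is uncertain. No activator was called in any of the 7 polysome comparisons, with limma adjusted p from 0.0502, for Psme2 in MII against zygote M, upwards.

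Psmc3ip, the recombination factor, was at 1.14, 1.68 and 0.854 FPKM in GV polysomes and 3.52, 1.73 and 2.66 in MII, at 0.939 to 1.41 in zygotes and 0.0494 to 0.546 in zygote M. All 3 two-cell libraries listed it at 0.01 FPKM, so no fold change against them is given here. The contrast flagged below that includes these libraries is only a fitted value. Two-cell M had 3.37, 0.567 and 0.475 FPKM, above that floor in every library (limma adjusted p = 0.00622), a call lost with 1 FPKM added.

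Whether a gene was enriched in polysomes was asked at each stage by setting the fractions of that stage against each other. In GV oocytes 1 gene was called higher in polysomes, Psmd8 (2.61% of all genes). In MII 0 genes were called (0.753%), with 0 of 42 (489 of 7967) at an unadjusted p under 0.05 and 0 to 1 under the other settings. In zygotes 2 genes were lower in polysomes, Psmb3 and Psmb6 (1.34%). In zygote M 0 were called (1.92%), with 4 (983 of 7967) at an unadjusted p under 0.05 and 0 to 3 under the other settings. In two-cell embryos 3 were lower, Psma5, Psmb3 and Psmb5 (6.38%). In two-cell M 2 were higher, Psmd3 and Psmf1 (9.7%), and 2 lower, Psmb3 and Psmc5 (5.06%). The median of the 42 genes was 0.71, -0.16, -0.17, -0.33, -0.62 and -0.53 from GV to two-cell M, and that of all genes 0.56, -0.04, -0.24, 0.31, 0.28 and 0.37. Quantile normalization changed the split in GV to 3 higher and 4 lower (308 and 569 of all genes), in zygote M to 0 and 3 (92 and 194), in two-cell to 1 and 4 (644 and 637), and in two-cell M to 0 and 0 (370 and 256). With only the groups of a stage in the fit, 0 were higher and 1 lower in GV (112 and 227 of all genes), 2 and 8 in zygotes (356 and 1249), 0 and 0 in two-cell (273 and 276) and 0 and 0 in two-cell M (5 and 14), so the calls named here for GV, two-cell and two-cell M were all lost in that fit. The GV count was 0 without polysome library A or non-polysome library B and 3 without non-polysome library C.

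Psmb3 was the gene most often lower in polysomes. Its non-polysome values were 148, 117 and 113 FPKM in GV, 36.2, 14.6 and 22.0 in zygotes, 48.5, 67.7 and 38.4 in two-cell and 20.1, 5.57 and 4.58 in two-cell M, each group above the polysome libraries of its stage. The difference was -3.37 ± 0.52 in zygotes (limma adjusted p = 0.000147), -1.53 ± 0.52 in two-cell (adjusted p = 0.0421) and -1.71 ± 0.52 in two-cell M (adjusted p = 0.0239). In GV it was -1.72 ± 0.52 and did not pass (adjusted p = 0.0503). With each library left out the zygote call held. Both two-cell calls were lost under quantile normalization. The two-cell call was lost without polysome library A or C or non-polysome library A or B (adjusted p 0.0707 to 0.166), and the two-cell M call without polysome library A or C or non-polysome library A (0.0591 to 0.169).

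Psmb6 in zygotes was at 51.4, 29.4 and 29.9 FPKM in the non-polysome fraction, all above its polysome libraries, with a difference of -2.10 ± 0.46 (limma adjusted p = 0.00998). The call was lost without polysome library C (adjusted p 0.0665) or non-polysome library B (0.132). Psmb5 in two-cell embryos was at 8.80, 11.3 and 17.4 FPKM in the non-polysome fraction, with a difference of -3.06 ± 0.94 (adjusted p = 0.0263), lost without polysome library A (0.175) or non-polysome library B (0.0531) or C (0.0672). Psma5 was at 0.253, 0.262 and 0.874 FPKM there, with -3.35 ± 0.73 (adjusted p = 0.00226), a call that held with each library left out and was lost with 1 FPKM added and with only these groups in the fit, as was that of Psmb5 in the latter.

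Psmd8, a lid subunit (chr7:29174188-29180701, minus strand), had 46.7, 45.7 and 37.4 FPKM in GV polysomes and 8.31, 0.679 and 15.3 in the non-polysome fraction, with no overlap. The difference was 3.28 ± 0.78 (limma adjusted p = 0.0128) and was lost without polysome library A (3.23, adjusted p 0.0554) or non-polysome library B (1.93, adjusted p 0.170). Psmd3 in two-cell M was at 5.24, 2.46 and 5.19 FPKM in polysomes and 0.0222, 0.0451 and 0.223 in the non-polysome fraction, a difference of 6.06 ± 1.34 (adjusted p = 0.00223), and was not called under quantile normalization. Psmc5 at that stage was at 16.8, 0.838 and 9.27 FPKM in the non-polysome fraction, against the polysome values above, and its call was lost without polysome library B or C or non-polysome library A or C. Psmf1, whose fractions overlapped, lost its call without polysome library B or C or non-polysome library C, and with 0.1 or 1 FPKM added.

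**Figure D5:**
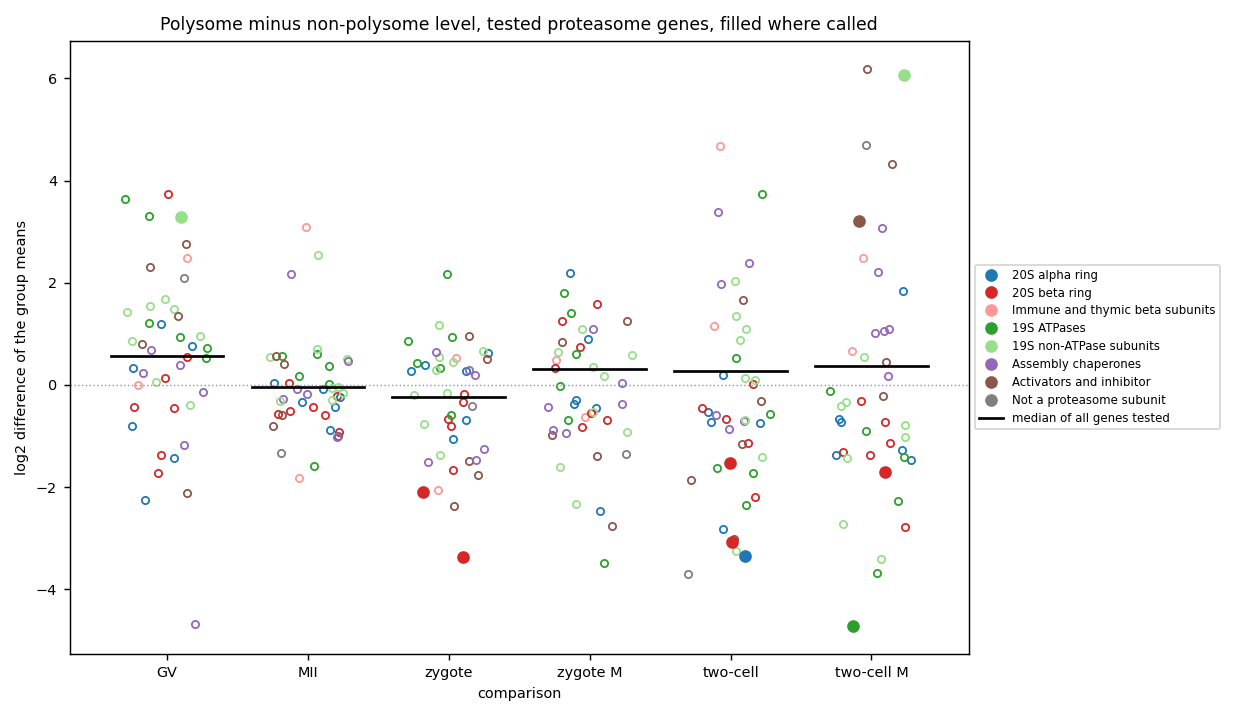
Log2 of the polysome over the non-polysome group mean (vertical axis) for the 42 genes tested at each stage (horizontal axis), coloured by role and filled where called, with a black line at the median of all genes tested. Filled points are few at each stage, 0 in MII and zygote M, and the lowest filled points in zygotes are Psmb3 and Psmb6.

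Whether the polysome change on entering M-phase differed from the non-polysome change was tested by an interaction contrast. For 0 of the 42 genes was it called in MII against GV (0.163% of all genes), in zygote M against zygote (0.289%) or in two-cell M against two-cell (5.75%). At an unadjusted p under 0.05 there were 2, 3 and 5 genes, against 587, 599 and 1533 of 7967. Other settings called 0 in meiosis, up to 3 in the first mitosis (4.69% of all genes in that fit) and up to 1 in the second (6.88%). With 1 library left out the counts were 0 in meiosis, 0 or 1 in the first mitosis (1 without zygote M non-polysome library B) and 0 to 4 in the second (4 without two-cell non-polysome library C).

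The M-phase changes themselves were compared between the divisions by a contrast of one change with another in the same fit. This contrast was added after the data had been seen. The change in the first mitosis differed from that in meiosis for 8 of the 42 genes (9.51% of all genes). The second mitosis differed from meiosis for 7 (23.5%) and from the first mitosis for 14 (23.7%). Psmb3 differed in all 3 contrasts, by 3.82 (limma adjusted p = 0.000658), -2.88 (0.00457) and -6.71 (1.10e-07), and each held with any 1 library left out.

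Of 32 other genes of the pathway, 29 were in the table and 23 were tested, and the shares of all genes given above for each comparison are the background of these counts too. In MII against GV 1 was higher, Rps27a, which encodes ubiquitin fused to a ribosomal protein and has processed pseudogenes that may share its reads, by 4.30 ± 0.82 (limma adjusted p = 0.000892), and 0 were lower. In zygote M against zygote 0 were higher and 2 lower, Rps27a by -3.58 ± 0.82 (adjusted p = 0.00547) and the unfoldase Vcp by -3.88 ± 1.16 (adjusted p = 0.0433). Both were scarce there. Rps27a averaged 0.359 FPKM in zygote and 0.0362 in zygote M polysomes, and Vcp 0.580 and 0.0584. The calls of these other genes are given from the main fit only. In two-cell M against two-cell 6 were higher and 1 lower. The largest rises were Rps27a, Zfand2a, Pomp, which matures the 20S core, at 3.32 ± 0.44 (adjusted p = 1.94e-06), and Sem1, a small lid subunit, while the ubiquitin gene Ubb fell by 1.26 on the log2 scale.

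GV exceeded the zygote in 2 of these genes and the two-cell stage in 8, led by Usp14, a deubiquitinase that binds the cap, at 5.52 ± 1.28 (limma adjusted p = 0.00325), with 0 lower in either. Usp14 averaged 1.58 FPKM in GV and 0.0241 in two-cell polysomes, the latter near the floor. The background for GV over two-cell was 12.3% of all genes. MII exceeded zygote M in 4, where 8.95% of all genes were higher, and two-cell M in 4, where 45.2% were, with 0 lower. Between fractions, Ubb was higher in polysomes at every stage but MII, by 1.18 to 1.88, and Pomp was lower in polysomes in two-cell and two-cell M, at -2.70 and -2.27.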

How the data were processed

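Polysome and non-polysome RNA of mouse oocytes and embryos was measured by SMART-seq RNA sequencing. The authors trimmed and aligned the reads and deposited FPKM per gene, a smallest value of 0.01 standing in every library, and the submitters' processing notes name Trim Galore 0.4.1, STAR 2.5.3a, Partek and GRCm38. The parameters of counting and the handling of reads with several matches are not given in the sources used here. Of 38 samples, 2, zygote A of each fraction, had no column and were not analysed here.

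The values of 36 libraries were taken to log2 with nothing added. limma 3.58.1 in R 4.3.3 fitted 12 group means with a mean-variance trend to the 7967 genes whose geometric mean reached 0.1 FPKM, and adjusted p-values over all of them (Benjamini-Hochberg, two-sided). A call needed an adjusted p under 0.05 and a fold change over 2. Script tests on simulated data preceded the fit. Tables and plots were made in Python 3.11.15 with numpy 2.4.6, pandas 2.3.3 and matplotlib 3.10.9. Depth was estimated from steps of 1 fragment in 6206 genes of 1 transcript. Of these genes 31.5% lay within 0.05 on the log2 scale of the mode, so the depth is approximate.

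The members and the gene lists (oocyte, granulosa, leukocyte, haemoglobin, sperm and two-cell genes, and other pathway genes) were chosen with earlier results of these data known. Values per library are given, by rule, for the 3 genes with the largest change among called genes whose mean reached 10 FPKM in a group of the comparison, and for the paralogs of the catalytic subunits and the activators. Others, such as Psma5, Psmb4 and Psmd6, were named after their values had been seen. Alternatives were 0.1 or 1 FPKM added, no minimum, a minimum mean of 1 FPKM, quantile normalization, a fit of only the groups compared, the replicate letter as a block, and leaving out each library.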

Additional observations from a re-analysis of the deposited data

Results flagged for a closer look

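The change of a gene on entering M-phase in polysomes was set against its change in another division, and 29 such differences passed the limma test (adjusted p under 0.05 and beyond 1 on the log2 scale), for 8, 7 and 14 of the 42 genes in the order below, against 9.51%, 23.5% and 23.7% of all genes. They are flagged because the change from interphase to M-phase differed between divisions by a test of the difference itself. The embryo M-phase groups had nocodazole and MII oocytes did not, so division and drug cannot be told apart in contrasts with meiosis. Meiosis stands for MII against GV, the first mitosis for zygote M against zygote, and the second for two-cell M against two-cell. The contrasts share groups and are not independent of each other.

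First mitosis minus meiosis was -5.39 for Psma6, -5.62 for Psmb1, -6.02 for Psmb5, -7.25 for Psmb7, -7.73 for Psmc2, -6.56 for Psmd6 and -4.33 for Psmf1, and 3.82 for Psmb3. Of these, Psmc2 held in 1 of 12 fits that left out a library, Psmd6 in 8 and Psmf1 in 0, and the other 5 in all 12.

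Second mitosis minus meiosis was 5.31 for Psma5, and -2.88 for Psmb3, -2.89 for Psmb6, -2.78 for Psmb7, -4.04 for Psmd9, -9.44 for Psmf1 and -6.91 for Psmg4. Psmb7 held in 3 of 12 such fits and the other 6 in all 12. Under quantile normalization Psmb7 and Psmd9 were not called, nor was Psmd9 with 1 FPKM added.

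Second minus first mitosis was 6.91 for Psma5, 3.76 for Psma6, 4.56 for Psmb1, 5.91 for Psmb5, 4.47 for Psmb7, 7.35 for Psmc2, 8.97 for Psmd6 and 4.29 for Psmd7. It was -6.71 for Psmb3, -3.81 for Psmb6, -5.92 for Psmd9, -5.11 for Psmf1 and -3.87 for Psmg4. Psmb1 held in 9 of 12 such fits, Psmc2 in 5 and Psmg4 in 5, and the others in all 12. Psmg4 was also not called under quantile normalization or with 0.1 or 1 FPKM added. The value of 9.29 for Psmc3ip rests on two-cell polysome libraries that all list the gene at 0.01 FPKM, so it is a fitted value and no bound.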

How the results depend on the processing

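No difference of a gene named by the rule changed sign under the alternatives run, but the balance of higher and lower genes turned in GV against zygote and between the GV fractions with only the groups compared, and between the GV fractions under quantile normalization. Of the named genes' differences, 163 kept their side of the threshold under other settings and 11 did not, and 108 kept it with a library left out and 36 did not. Counts of proteasome genes called changed by over 1.5 times, or to or from 0, as follows, and the cause was not tested. The share of all genes called under the same setting follows each group of counts. With 0.1 FPKM added they were 9 in MII against GV, 12 in zygote M against zygote, 6 in GV against zygote, 17 in GV against two-cell, 3 between fractions in GV and 17 in first mitosis minus meiosis (in turn 13.4%, 8.84%, 11.1%, 24.5%, 8.17% and 17.9% of all genes). With 1 FPKM added they were 13, 15 and 5 in MII against GV, zygote M against zygote and GV against zygote, 24 in MII against zygote M, 5 and 1 between fractions in GV and zygote M, and 21 in first mitosis minus meiosis (20.1%, 11.3%, 16.4%, 22.3%, 12%, 1.56% and 24.5%). With a minimum mean of 1 FPKM the GV fractions gave 2 (5.93%). Quantile normalization gave 12, 17 and 8 in MII against GV, zygote M against zygote and GV against zygote, 7, 3, 5 and 0 between fractions in GV, zygote M and both two-cell groups in turn, 1 in the ratio change of the first mitosis and 18 in first mitosis minus meiosis (19.4%, 14.6%, 17.7%, 11%, 3.59%, 16.1%, 7.86%, 0.615% and 24.6%). With only the groups compared in the fit, counts were 18, 29, 5, 19 and 31 in MII against GV, zygote M against zygote, two-cell M against two-cell, GV against zygote and MII against zygote M, 1, 10, 0 and 0 between fractions in MII, zygote, two-cell and two-cell M, and 3 in the ratio change of the first mitosis (27.1%, 33.1%, 20.9%, 31%, 40.6%, 6.45%, 20.1%, 6.89%, 0.238% and 4.69%).

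With 1 library left out the counts ran from 2 to 3 in MII against GV, 3 to 5 in zygote M against zygote, 8 to 10 in two-cell M against two-cell, 2 to 4 in GV against zygote, 7 to 10 in GV against two-cell, 6 to 11 in MII against zygote M and 16 to 20 in MII against two-cell M. Between fractions they ran from 0 to 3 in GV, 0 to 0 in MII, 1 to 2 in zygote, 0 to 1 in zygote M, 1 to 5 in two-cell and 2 to 8 in two-cell M. Ratio changes gave 0 to 0, 0 to 1 and 0 to 4 in meiosis, the first and the second mitosis, the stage effect 29 to 32, and the contrasts of M-phase changes 5 to 8, 6 to 7 and 12 to 14. The share of all genes called in the fits with a library left out is not given, here or above. A changed count may therefore not be particular to the proteasome genes.

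Whether the letters pair the samples was not settled, since the labels do not say it and not every pair correlated over 0.1. Libraries of the same letter and stage in the other fraction had deviations that correlated over 0.1 in 6 of 18 pairs (mean 0.0756), against 1 of 36 pairs of different letters (mean -0.0372), and those of the same letter and fraction at another stage in 5 of 80 (mean 0.0190). With the letter as a replicate block the GV fractions gave 2 calls, also with a replicate block by gradient, which gave 1 in the ratio change of the second mitosis. The other block counts stayed within 1.5 times. In the shallowest library, two-cell M non-polysome B, 0.1 FPKM stands for under 1 fragment per kilobase, so values near the floor rest on few fragments.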

Other observations

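Of the pseudogene rows, Psmb6-ps was above 0.1 FPKM in 2 of 36 libraries, Psmb6-ps2 in 33, with a median of 0.422 FPKM, and Psmb7-ps2 in 15.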
